A study of Mus musculus with 18 samples.

Results

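Ovarian follicles of young C57BL/6Ntac mice were cultured for 24 h with vehicle or with recombinant anti-Müllerian hormone (AMH) at 50 ng/mL, and their transcripts were compared gene by gene. The comparison rested on 6 of the 18 arrays of the study, which were the 3 vehicle arrays and the 3 AMH 50 ng/mL arrays collected at 24 h. The 3 arrays of AMH 200 ng/mL at 24 h were used to estimate the spread and for a direct comparison of the doses. All groups were preantral to small antral follicles of this strain from mice aged 6 to 8 weeks, in medium with 80 IU/L FSH and 10 IU/L LH, so that vehicle means gonadotropins without added AMH. Follicles of 7 mice were pooled and then divided over the doses, and the replicate number marks such a pool. Each difference was therefore taken within a pool, and each pool is 1 replicate. A follicle sample holds oocytes, granulosa cells and any theca, stroma, vessel, leukocyte or surface cells that stayed attached, and in such bulk RNA fewer cells of a type and less RNA per cell cannot be told apart.

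AMH is made by the granulosa cells of growing follicles. It belongs to the TGF-beta superfamily and signals through its own type II receptor, AMHR2, with type I receptors that it shares with the bone morphogenetic proteins (BMPs), to SMAD1, SMAD5 and SMAD9. Among the direct targets of these SMADs are the Id genes and the inhibitory SMAD genes Smad6 and Smad7. In the ovary AMH is known for holding back the recruitment of primordial follicles and for lowering the response of growing follicles to FSH.

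The values are MAS5 signals, a linear measure of the brightness of a probe set, and differences are in log2 after 16 was added to each signal. Of 45037 probe sets that are not array controls, the brighter 22518 were tested, and they represented 11170 genes with 1 symbol. The pool differences had medians over all genes of -0.05, 0.04 and 0.01 and SDs of 0.37, 0.36 and 0.31. Across genes the differences of pools 1 and 2 had a Pearson correlation of -0.12, those of pools 1 and 3 of 0.24, and those of pools 2 and 3 of 0.20, which describes the pools and is no test, since genes are not independent. The AMH array of pool 1 had the highest signals of the hybridisation controls (2661, against 1441 to 1989 on the other 8 arrays of 24 h) and of the poly-A controls (1264, against 322 to 836). Correlations among these 9 arrays ran from 0.975 to 0.992. The ratio of 3′ to 5′ signals of GAPDH, a measure of RNA integrity, lay at 1.35, 1.33 and 1.54 with vehicle and at 1.35, 1.17 and 1.46 with AMH.

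The labelled tissue was checked against defining markers. Granulosa cell genes were bright, with Inha, the inhibin alpha subunit gene, at 2142, 2149 and 1932 with vehicle in pools 1 to 3. The oocyte gene Zp3 stood at 158, 1172 and 625, so that the vehicle cultures themselves differed widely in oocyte signal before any comparison with AMH. Tyrobp, a myeloid gene, was present at 179, 218 and 236, while Ptprc, the leukocyte common antigen gene, was near the floor on all 6 arrays (0.60 to 13.0 over its 2 probe sets). Of the red blood cell markers, 2 of 6 on the array passed the filter on dim probe sets, and Alas2 lay between 7.58 and 22.1. Amh itself lay between 10.3 and 35.1 on the 6 arrays and Smad9 between 3.57 and 12.0, both too dim to be tested.

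The comparison asked which transcripts differed after a day with AMH. Slc18a2 fell in all 3 pools and alone passed the test. Oocyte, ovarian surface epithelium and leukocyte markers were lower in most of their members. So were mitosis genes (39 of 40), DNA replication genes (31 of 36) and granulosa cell markers (17 of 21), with medians nearer 0. Slc18a2 had been placed on the oocyte list, and no other member of these lists passed the test. Of 16 measured target genes of SMAD1/5/9, 0 reached an unadjusted p under 0.05 at their brightest probe set, and a second probe set of Id2 did. Of the 22518 probe sets 1 passed the test (limma, Benjamini-Hochberg adjusted p under 0.05), which is 0.00444%, and it belonged to Slc18a2. This gene encodes the vesicular monoamine transporter VMAT2, which loads monoamines such as serotonin, dopamine and histamine into vesicles. Its signals were 864, 900.3 and 1259 with vehicle in pools 1, 2 and 3, and 367, 377 and 498 with AMH. All 3 AMH arrays lay far below the lowest vehicle array. The difference was -1.24 (SE 0.13), a 2.37-fold lower signal, with pool differences of -1.20, -1.22 and -1.31 and an adjusted p of 0.0409. The call was lost when pool 1 (adjusted p = 0.526) or pool 3 (adjusted p = 0.119) was left out, and without pool 2 it held (adjusted p = 0.04) and 14 probe sets passed. It was past the threshold under 9 of 16 other settings, and beside those losses it missed it without the pool as a block, with all 18 arrays or 17 of them, with no filter and without the variance trend. The number of probe sets that passed ranged from 0 without the block to 115 with array weights, and the 3 pools limit the precision of every value here. Across all probe sets, 1274 (5.66%) had an unadjusted p under 0.05, where 1126 are expected by chance from a uniform distribution. Of these, 924 (4.10%) were lower and 350 (1.55%) higher with AMH.

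The other monoamine genes that were bright enough to be measured were not lower in all pools. Maoa, the monoamine oxidase A gene, stood at 307, 289.9 and 309 with vehicle and 326, 335 and 436 with AMH, a difference of 0.25 (SE 0.15) with an unadjusted p of 0.123. Its 3 AMH arrays were slightly above the vehicle arrays. Maob, the monoamine oxidase B gene, overlapped between the groups, at 61.1, 38.5 and 94.3 against 41.5, 70.4 and 84.8. Of 15 monoamine genes listed, 13 were on the array, 3 passed the filter and the other 10 were too dim to be tested.

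Among the probe sets that did not pass, the smallest p-values on the lower side belonged to probe sets of Lyz1, Cxcl1 and Pdzd8, and Muc1, Slc40a1, Myo5b and Cdo1 were among the others. Cxcl1, a chemokine that attracts neutrophils, stood at 467, 538 and 418 with vehicle and at 139, 149 and 201 with AMH. The groups were well apart, by more than the spread of either. The difference was -1.46 (SE 0.18) with an adjusted p of 0.0893, and its other probe sets stood at -1.55 (SE 0.22) and -1.17 (SE 0.20). Muc1, a membrane mucin of epithelia, had 79.7, 241 and 191 with vehicle and 23.8, 59.0 and 63.4 with AMH. It was lower by a similar amount in every pool, at -1.27, -1.77 and -1.38, with a mean of -1.48 (SE 0.20) and an adjusted p of 0.116.

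**Figure D1:**
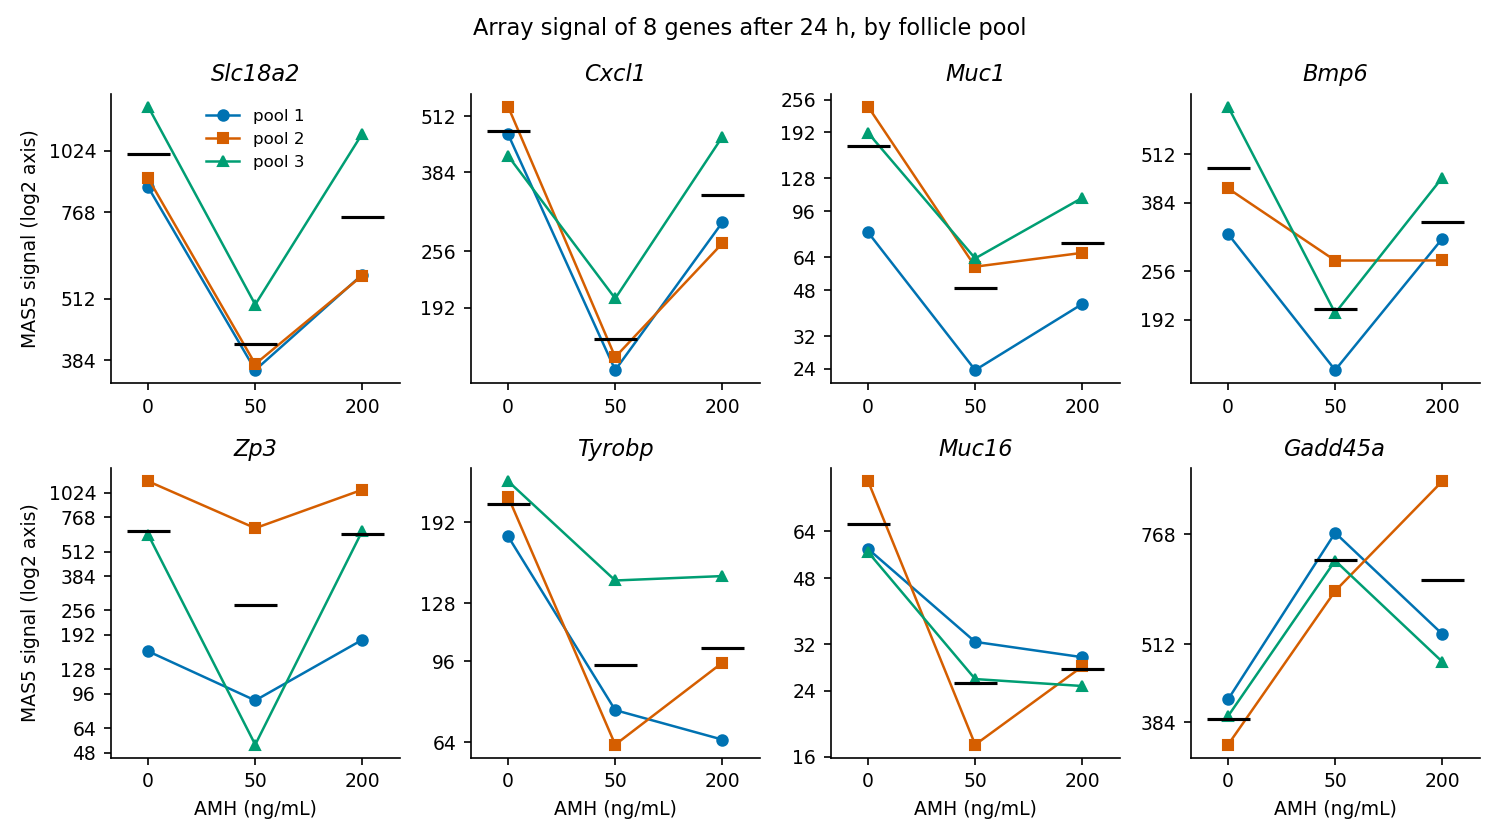
MAS5 signal (log2 axis) of 8 genes on each of the 9 arrays of 24 h, against the AMH dose in ng/mL, with 1 line per follicle pool and black bars for the arithmetic means of 3 arrays. For Slc18a2, Cxcl1, Muc1, Bmp6, Tyrobp and Muc16 the 3 AMH 50 ng/mL points lie below the 3 vehicle points, for Gadd45a above, and for Zp3 the groups overlap.

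Slc40a1 encodes ferroportin, the exporter of iron from cells. Its signals were 699, 628 and 1001 with vehicle against 375, 407 and 584 with AMH, with no overlap. The difference was -0.75 (SE 0.11), with an adjusted p of 0.132, and a second probe set gave -0.78 (SE 0.12). Myo5b, the gene of a myosin that moves recycling vesicles, stood at -0.9986 (SE 0.16) and Cdo1, the gene of cysteine dioxygenase, at -1.11 (SE 0.18). Both were lower in each pool, Cdo1 at -1.15, -0.77 and -1.41, while the signals of the groups overlapped, with vehicle signals of 78.2, 312 and 142 for Cdo1. A lysozyme probe set assigned to Lyz1, whose probes can also match the near-identical Lyz2, had 372, 295 and 899 with vehicle and 86.5, 113 and 412 with AMH. It was lower in each pool, with a mean of -1.43 (SE 0.18), with an adjusted p of 0.0893. A brighter probe set assigned to Lyz1 averaged -1.10 (SE 0.22), with an adjusted p of 0.291.

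Pdzd8, the gene of a protein at contact sites of the endoplasmic reticulum, was the remaining gene of this group and gave different values at different probe sets. One of them stood at 303, 262 and 367 with vehicle and 114, 127 and 144 with AMH, a difference of -1.17 (SE 0.15) with an adjusted p of 0.0893. The brightest probe set of the gene stood at 292, 316 and 334 against 260.3, 335 and 295, a difference of -0.08 (SE 0.12). The remaining tested probe set gave -0.22 (SE 0.16). The gene as a whole therefore has no single value here, since the first probe set was lower in every pool and the other two were not.

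On the higher side no probe set passed, and the sizes were smaller: 6 genes (0.0537%) were higher by more than 1, against 45 (0.403%) that were lower by more than 1. Gadd45a, a growth arrest and DNA damage response gene, had 418, 353 and 393 with vehicle and 772, 623 and 697 with AMH. All AMH arrays were above all vehicle arrays, and the pool differences of 0.86, 0.79 and 0.80 were nearly equal. The mean was 0.82 (SE 0.21), with an adjusted p of 0.46. Kcnk15, a potassium channel gene, stood at 51.8, 26.1 and 27.1 against 102, 64.9 and 98.9, at 1.05 (SE 0.25), with signals near the median of the arrays (24.0 to 36.5) under vehicle in pools 2 and 3. Mapk13, the p38 delta kinase gene, stood at 133, 134 and 136 against 279, 269 and 169.6, and pool 3 differed least, at a mean of 0.73 (SE 0.17).

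Tgfbi, a secreted matrix protein named for its induction by TGF-beta, was higher at each of its 4 tested probe sets, from 0.42 to 0.67. The last of these had 212, 222 and 211 with vehicle and 348, 376 and 334 with AMH. The groups did not overlap, and the adjusted p was 0.291. Niban1, a stress-induced gene, stood at 0.64 (SE 0.15), Ctps, the CTP synthase gene, at 0.60 (SE 0.15), Pxmp4, a peroxisomal membrane protein gene, at 0.51 (SE 0.12), Shisa6 at 0.49 (SE 0.12) and Sgms1, the sphingomyelin synthase gene, at 0.43 (SE 0.11). Of these 5, Shisa6 overlapped between the groups and the other 4 did not at the probe set named. A second probe set of Pxmp4 differed by 0.04 (SE 0.20), and a dim one of Sgms1 by -0.32 (SE 0.31).

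**Figure D2:**
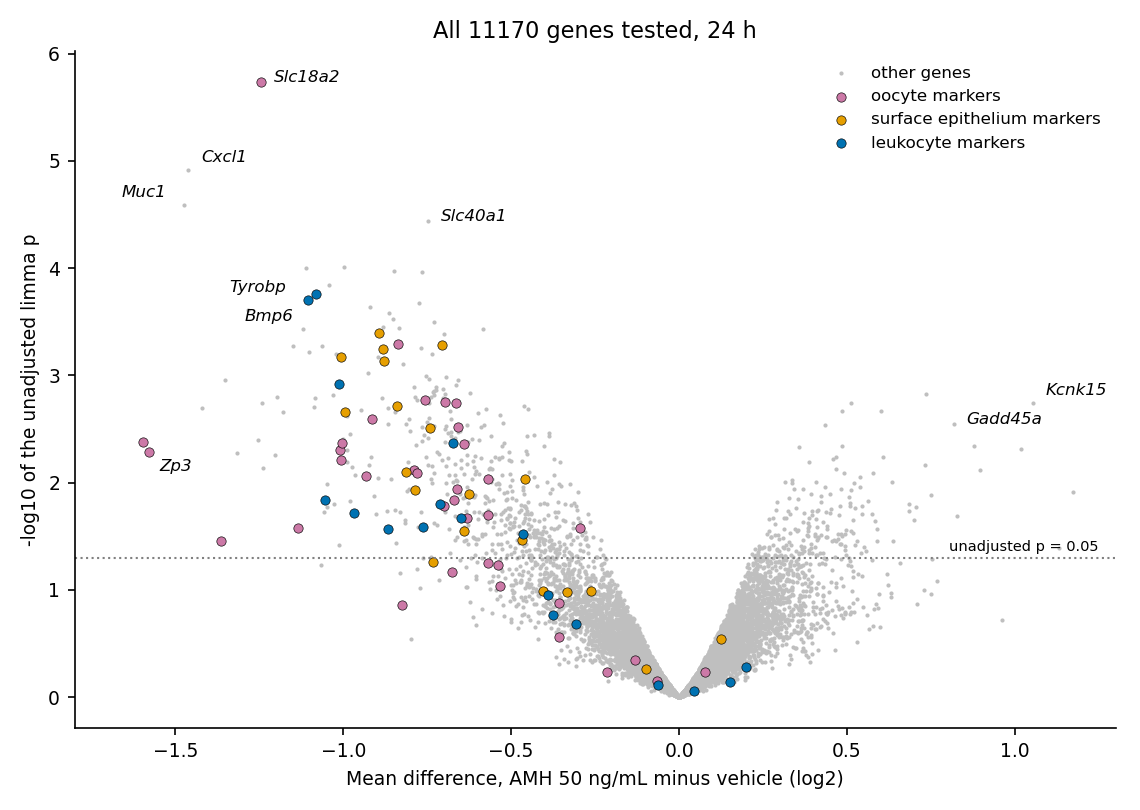
Each point is 1 of 11170 genes, with the mean difference (log2, AMH 50 ng/mL minus vehicle) on the horizontal axis and -log10 of the unadjusted limma p on the vertical axis. Oocyte, surface epithelium and leukocyte markers are coloured and lie mostly on the left, where Slc18a2 has the smallest p.

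The lists were described by their counts beside those of all genes. Of the 11170 genes, 48.8% had a mean difference below 0 and 51.2% above, 11.6% were lower and 12.0% higher in 3 of 3 pools, 4.62% were lower and 1.72% higher at an unadjusted p under 0.05, and 3.13% were lower and 3.27% higher with no overlap between the groups. One gene, Slc18a2, passed the adjusted threshold (0.00895% of genes). The median difference over all genes was 0.0038. Centring each array on its median instead of using the deposited scale moved the median over all probe sets to 0.10.

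Oocyte markers were lower in 35 of 36 measured members, with a median of -0.67, and 26 were lower in 3 of 3 pools. An unadjusted p under 0.05 was reached by 25, Slc18a2 among them, and the only one past the adjusted threshold was Slc18a2. Its vehicle signals, given above, were highest in pool 3, whereas those of the list were highest in pool 2. The single adjusted call of the list therefore rests on a member whose levels did not follow the list over the vehicle cultures. The lists were chosen with earlier results of these data known, so that this call is no separate evidence for the list. The summed signal of the list was 7408, 19315 and 11252 with vehicle and 6168, 12322 and 5343 with AMH. It was lower with AMH in each pool, but the vehicle cultures spanned a wider range than the 2 treatments did within any pool. The pool medians were -0.27, -0.70 and -1.08, smallest in pool 1 and largest in pool 3. Of the 48 genes listed, 42 were on the array and 36 passed the filter.

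Genes of the zona pellucida, the glycoprotein coat of the oocyte, differed between the pools in size. Zp3 stood at 158, 1172 and 625 with vehicle and 88.8, 675 and 52.8 with AMH. The AMH signal of pool 3 was the lowest of the 6 although its vehicle signal was not, and in pools 1 and 2 AMH was lower by less than 1 on the log2 scale. The difference was -1.58 (SE 0.44) with an unadjusted p of 0.00517. Zp2 had 47.0, 630.1 and 314 against 45.2, 393 and 15.5, so that pool 1 hardly differed while pool 3 differed by -3.39. Its mean was -1.36 (SE 0.56). Zp1 stood at 62.8, 348 and 113 against 37.5, 180.3 and 27.5, lower in each pool, at -0.56, -0.89 and -1.56.

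Among the growth factors that the oocyte secretes to act on granulosa cells, Gdf9 stood at 103, 729.6 and 277 with vehicle and 71.5, 430 and 65.8 with AMH. It was lower in every pool, most in pool 3, and averaged -1.01 (SE 0.29). Bmp15 was lower by more even amounts, at -0.51, -0.88 and -0.88, with signals of 144, 498 and 183 against 96.5, 263 and 92.7. Its 3 probe sets averaged -0.76 (SE 0.18), -0.97 (SE 0.16) and -0.86 (SE 0.15). The groups overlapped for both genes, and pool 2 was the brightest with either treatment.

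Btg4, an adaptor of the machinery that degrades maternal mRNA, had 209.5, 695 and 362 with vehicle and 109.5, 452 and 165 with AMH. Pool 2 was highest in both groups, and each pool was lower with AMH, at a mean of -0.84 (SE 0.17) with an adjusted p of 0.291. Lhx8, an oocyte transcription factor gene, stood at 36.4, 135 and 71.4 against 15.3, 72.7 and 21.1, a mean of -0.91 (SE 0.23), and reached the dim end in pools 1 and 3 with AMH. Tcl1, a co-activator of AKT in the oocyte and early embryo, averaged -0.70 (SE 0.16). Gja4, connexin 37 of the gap junctions between oocyte and granulosa cells, averaged -0.67 (SE 0.16) with pool differences of -0.75, -0.67 and -0.58. Each of these genes was lower in every pool, while Zp2 hardly differed in pool 1.

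Upstream sequences of 5 genes placed on the oocyte list are shown because most of the list was lower with AMH. A further reason is that FIGLA and NOBOX, transcription factors of the oocyte, bind an E-box (CANNTG) and the letters TAATTG. Slc18a2 is among the 5 genes, although its vehicle signals did not follow those of the list. Each sequence runs 5′ to 3′ on the strand of the gene over the 250 bases before its start. The sequences were taken from RefSeq on GRCm38.p6, with matches on either strand in capitals. The windows are chr19:59260628-59260877 (plus strand), chr9:51115751-51116000 (plus), chrX:6320725-6320974 (minus), chr3:154330561-154330810 (minus) and chr5:135979855-135980104 (plus).
Slc18a2: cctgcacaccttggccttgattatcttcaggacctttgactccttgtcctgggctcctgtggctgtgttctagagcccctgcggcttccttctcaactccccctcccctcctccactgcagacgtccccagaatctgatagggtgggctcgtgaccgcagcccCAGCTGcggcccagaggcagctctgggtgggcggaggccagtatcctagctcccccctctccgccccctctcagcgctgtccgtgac
Btg4: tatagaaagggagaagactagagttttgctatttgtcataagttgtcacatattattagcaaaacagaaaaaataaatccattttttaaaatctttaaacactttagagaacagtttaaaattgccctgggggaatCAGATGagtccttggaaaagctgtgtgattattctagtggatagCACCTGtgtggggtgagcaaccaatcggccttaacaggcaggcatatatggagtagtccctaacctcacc
Bmp15: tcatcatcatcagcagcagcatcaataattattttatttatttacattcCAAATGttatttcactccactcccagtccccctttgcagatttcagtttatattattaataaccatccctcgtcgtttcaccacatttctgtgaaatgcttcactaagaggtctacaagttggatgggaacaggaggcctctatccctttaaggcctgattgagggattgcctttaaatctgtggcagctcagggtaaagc
Lhx8: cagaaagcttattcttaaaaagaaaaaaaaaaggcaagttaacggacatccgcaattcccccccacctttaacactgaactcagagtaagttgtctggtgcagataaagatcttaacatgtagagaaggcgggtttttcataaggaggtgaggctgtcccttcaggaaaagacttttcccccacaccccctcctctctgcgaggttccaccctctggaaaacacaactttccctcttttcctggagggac
Zp3: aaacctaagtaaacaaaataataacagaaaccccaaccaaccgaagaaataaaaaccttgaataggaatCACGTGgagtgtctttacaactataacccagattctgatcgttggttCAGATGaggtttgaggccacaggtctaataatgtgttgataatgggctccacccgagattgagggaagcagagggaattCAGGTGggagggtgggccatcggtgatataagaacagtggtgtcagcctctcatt

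Slc18a2 and Bmp15 each held 1 E-box match, Btg4 held 2, Zp3 held 3 and Lhx8 held 0, and TAATTG matched in 0 of the 5 windows. The match of Slc18a2 began 87 bases before the start and those of Zp3 began 181, 134 and 55 bases before it. A promoter was listed for 28 of the 36 measured oocyte markers, and 24 of these (85.7%) held an E-box, against 56.1% of the promoters of 9096 tested genes and 66.0% of all 27025 promoters. TAATTG was present in 2 of the 28 (7.14%), against 4.23% and 7.34%. The letters CANNTG are short and partly free, so that most promoters hold them. For mitosis genes, the cell cycle homology letters TTTGAA were found in 12 of 35 promoters (34.3%, against 10.2% of tested genes and 16.3% of all) and CCAAT in 26 of 35 (74.3%, against 36.5% and 34.5%). For leukocyte markers, the PU.1 letters GAGGAAGT were found in 1 of 11 (9.09%, against 2.09% and 2.44%). These are matches of letters, read on both strands, and say nothing of a factor's presence on the DNA.

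**Figure D3:**
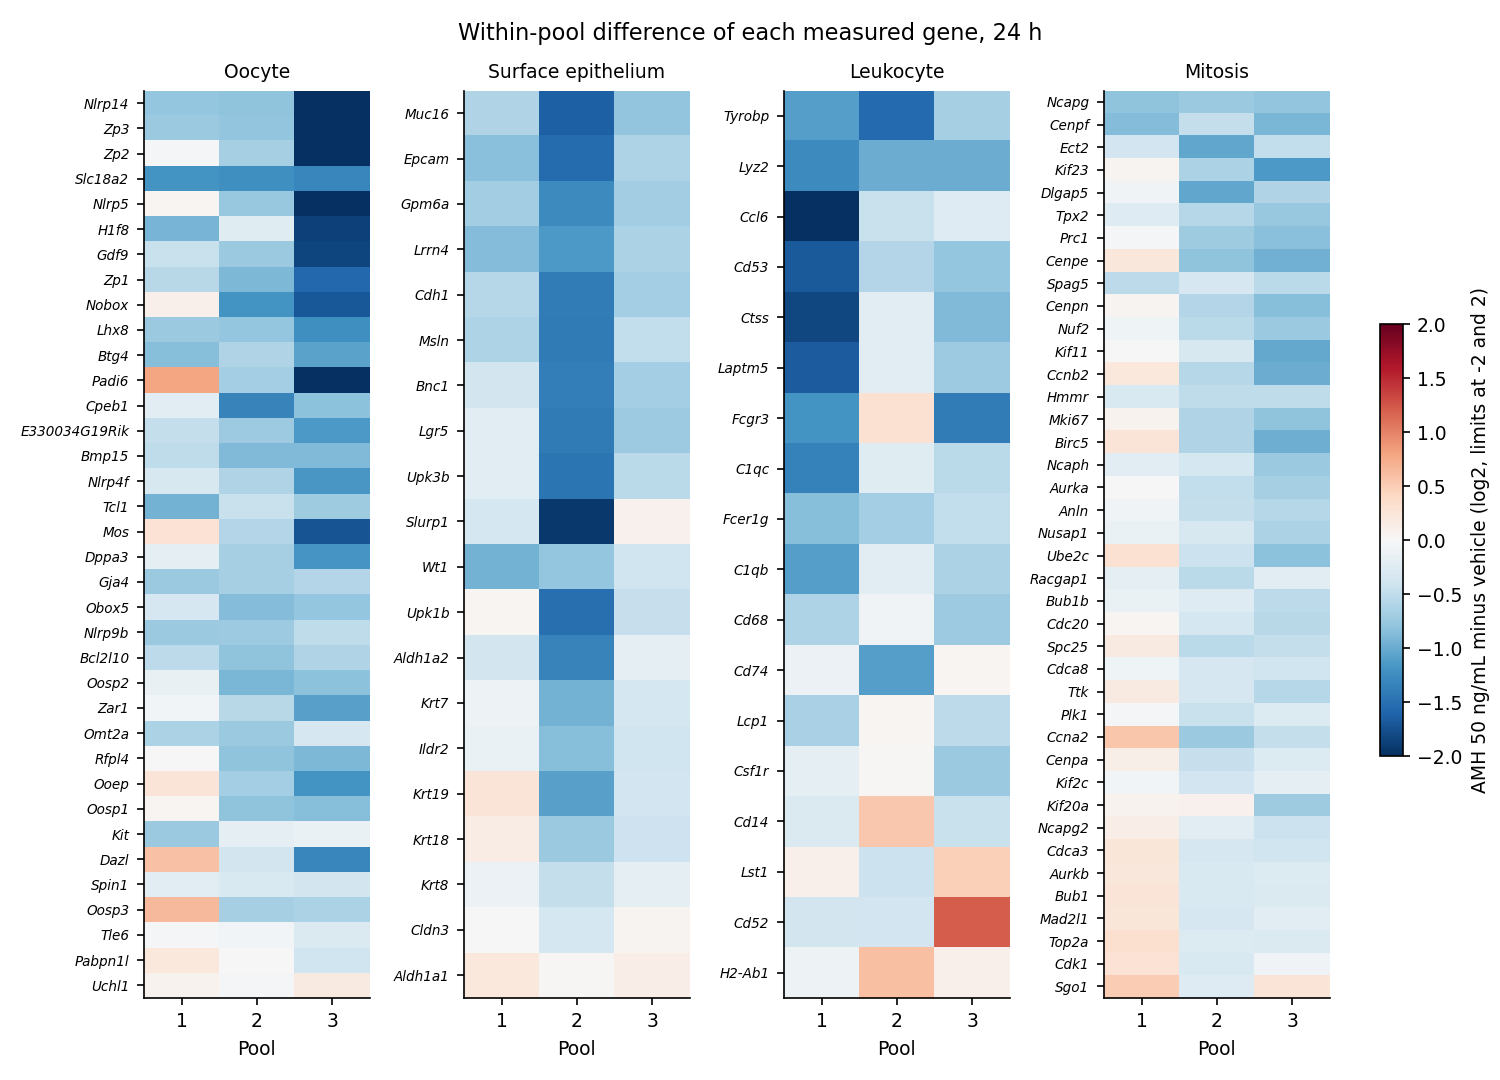
Heat maps of the difference of each measured oocyte (36), surface epithelium (20), leukocyte (18) and mitosis gene (40) in pools 1, 2 and 3, in log2 with the colour scale limited at -2 and 2 (blue is lower with AMH 50 ng/mL). The darkest oocyte cells are in pool 3, the darkest surface epithelium cells in pool 2, and the darkest leukocyte cells in pool 1.

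Ovarian surface epithelium markers, genes of the mesothelial layer that covers the ovary, were lower in 19 of 20, with a median of -0.72. Of the 20, 14 were lower in 3 of 3 pools, 14 at an unadjusted p under 0.05, and 10 had groups that did not overlap. The summed signal was 8259.8, 13765 and 8735 with vehicle against 7703, 7397 and 7127 with AMH, so that the vehicle culture of pool 2 stood above all others. The pool medians were -0.29, -1.31 and -0.44, and without pool 2 the list median was -0.33. Muc16, the CA125 mucin gene, had 57.4, 87.0 and 56.3 with vehicle and 32.4, 17.2 and 25.8 with AMH. The groups did not overlap, at a mean of -1.01 (SE 0.21) with an unadjusted p of 0.000674. Mesothelin (Msln) stood at 199, 398 and 181 against 125, 139 and 124, with AMH arrays close together and a high vehicle value in pool 2, at -0.84 (SE 0.20). Keratin 19 (Krt19), another defining marker, stood at 562, 1415 and 781 against 674.5, 660.5 and 593. Its groups overlapped and pool 1 was higher with AMH, with pool differences of 0.26, -1.08 and -0.39. The mean was -0.40 (SE 0.22). Cdh1, the E-cadherin gene, averaged -0.88 (SE 0.18), the neuronal membrane glycoprotein gene Gpm6a -0.89 (SE 0.17), the mesothelial membrane protein gene Lrrn4 -0.88 (SE 0.18), and Wt1, a transcription factor gene that granulosa cells express too, -0.71 (SE 0.14).

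Macrophage and leukocyte markers were lower in 15 of 18, with a median of -0.66. Of the 18, 10 were lower in 3 of 3 pools, 11 had an unadjusted p under 0.05, and 1 had groups that did not overlap. The summed signal was 2732, 2095 and 4229 with vehicle against 1241, 1702 and 3015 with AMH, lower in each pool, and the pool medians were -0.97, -0.23 and -0.59. With the filter at the 75th percentile 3 members were left, with a median of 0.15. Of 33 genes on the array 18 passed the filter. Tyrobp, the signalling adaptor of myeloid receptors, had 179, 218 and 236 with vehicle and 75.1, 63.2 and 144 with AMH. Its groups did not overlap, and it averaged -1.10 (SE 0.19) with an adjusted p of 0.236. Lyz2, the macrophage lysozyme gene, stood at 314, 295 and 662 against 121, 141 and 326, lower by about the same amount in each pool while the groups overlapped and pool 3 was the brightest with either treatment. Its mean was -1.08 (SE 0.19). The tetraspanin gene Cd53 averaged -1.01 (SE 0.23), Fcer1g, the common gamma chain of Fc receptors, -0.67 (SE 0.18), the complement gene C1qc -0.71 (SE 0.25), and the chemokine gene Ccl6 -1.05 (SE 0.36), the last with pool 1 at -2.46.

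Acute-phase and cytokine genes were measured in 9 of the 23 on the array, and 6 of the 9 were lower, all 6 at an unadjusted p under 0.05. Beside Cxcl1, they were Lcn2, an iron-trapping protein of epithelia and neutrophils, at -1.24 (SE 0.37), the acute-phase gene Saa3 at -0.82 (SE 0.30), the interleukin 1 receptor antagonist gene Il1rn at -0.67 (SE 0.18), and the monocyte chemokine genes Ccl2 at -0.58 (SE 0.23) and Ccl7 at -0.47 (SE 0.17). Il1rn had 42.8, 92.5 and 50.3 with vehicle and 28.6, 35.1 and 30.3 with AMH, without overlap. In pool 1 the differences of Saa3, Ccl2 and Ccl7 were small, at -0.16, 0.07 and -0.08. The median of the 9 was -0.58, with pool medians of -0.16, -1.01 and -0.58. Leukocyte and surface epithelium markers were lower on the same arrays, as given above, and their part in these values was not tested.

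Mitosis genes were lower in 39 of 40, with a median of -0.34, and 14 had an unadjusted p under 0.05. In pool 1 the list median was above 0, and the 3 pools stood at 0.05, -0.45 and -0.56. Of the 40, 18 were lower in 3 of 3 pools and 6 had groups that did not overlap. Ncapg, a condensin subunit gene, stood at 97.5, 223 and 169 with vehicle and 49.1, 127.5 and 91.5 with AMH. It was lower by nearly the same amount in each pool, -0.80, -0.74 and -0.78, with a mean of -0.78 (SE 0.14) and an unadjusted p of 0.000209. The kinetochore gene Cenpf averaged -0.75 (SE 0.16) at one probe set and -0.29 (SE 0.23) at another. The spindle genes Spag5, Dlgap5, Hmmr and Prc1 averaged -0.47, -0.57, -0.45 and -0.53, each with groups that did not overlap. The gap was very narrow for Dlgap5 and Prc1. For Dlgap5 the lowest vehicle signal was 51.1 and the highest AMH signal 50.8, and pool 1 differed by -0.06. For Prc1, a cytokinesis gene, the signals were 115, 199 and 158 against 112, 115 and 81.2, so that pool 1 gave almost no difference.

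DNA replication genes were lower in 31 of 36, but by small amounts, with a median of -0.14 and pool medians of 0.03, -0.37 and -0.10. Without pool 2 the list median was -0.02, with 19 of 36 lower. Median centring gave -0.03, with 23 of 36 lower. An unadjusted p under 0.05 was reached by 3 of the 36. They were the helicase subunit genes Mcm5 at -0.45 (SE 0.15) and Mcm6 at -0.31 (SE 0.11) and the polymerase subunit gene Pole2 at -0.44 (SE 0.16). Pole2 had 93.7, 100.3 and 74.99 with vehicle and 59.0, 62.5 and 62.9 with AMH, without overlap. Among cyclin D and CDK inhibitor genes 9 of 13 were higher, with a median of 0.09 and none at an unadjusted p under 0.05. The pools disagreed in sign, with medians of 0.33, -0.25 and 0.11. Without pool 1 the median was -0.07, with 9 of 13 lower.

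Receptors and SMADs of the pathway itself gave values that depended on the probe set or the pool. Amhr2, the AMH receptor gene, was bright, at 1332, 1521 and 1500 with vehicle and 1257, 1190 and 1372 with AMH. The ranges overlapped, at -0.19 (SE 0.12) with a 95% interval of -0.45 to 0.08. A second probe set gave -0.13 (SE 0.12), and another, dimmer one was lower in each pool, at 542, 599 and 607 against 306, 486 and 467, or -0.48 (SE 0.15) with an unadjusted p of 0.00994 and no overlap. Eng, the gene of the co-receptor endoglin, stood at 0.45 (SE 0.24), with pool differences of 1.03, -0.20 and 0.52. The SMAD gene Smad5 stood at -0.19 (SE 0.12). Among the ligands, Bmp6 had 319, 418 and 679 with vehicle and 142, 273 and 199.6 with AMH. All AMH arrays lay below the vehicle arrays, at -1.12 (SE 0.21) with an unadjusted p of 0.000371 and an adjusted p of 0.278. Bmp6 is made by oocytes as well as by granulosa cells. Fstl3, a secreted inhibitor of activin, stood at 278, 271 and 216 against 377, 359.7 and 295, higher in each pool, at 0.41 (SE 0.18). Of the 20 measured components, 10 were lower and 10 higher, and Bmp6 and Fstl3 were the 2 with an unadjusted p under 0.05 at their brightest probe set.

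SMAD1/5/9 target genes were higher in 12 of 16, with a median of 0.06, and 0 of 16 reached an unadjusted p under 0.05 at their brightest probe set, where 1.72% of all genes did so on the higher side. Their pool medians were 0.17, -0.09 and 0.21, and 1 of the 16 was higher in 3 of 3 pools. Id1, a target gene that encodes an inhibitor of basic helix-loop-helix factors, had 344, 407 and 292 with vehicle and 379, 363 and 319 with AMH. The groups overlapped fully, at 0.03 (SE 0.12) with an interval of -0.24 to 0.30. Id3 stood at 878, 1187 and 1078 against 1374, 1048 and 1262, or 0.23 (SE 0.15), higher in pools 1 and 3 and lower in pool 2. Smad6 stood at 73.7, 107 and 85.0 against 85.8, 101 and 149, or 0.27 (SE 0.19) with an interval of -0.14 to 0.69, with only pool 3 clearly higher. Id2 gave 0.06 (SE 0.16) at its brighter probe set and 0.37 (SE 0.15) at the other, which was higher in each pool, at 0.21, 0.55 and 0.35, with an unadjusted p of 0.0356. Smad7 gave -0.09 (SE 0.18) and 0.25 (SE 0.16), and the first of these was 0.02 with median centring and 0.01 with array weights. The targets with the smallest p were Znrf3, a ubiquitin ligase gene, at 0.32 (SE 0.16), and the BMP-binding protein gene Bmper at 0.30 (SE 0.15).

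Granulosa cell markers were lower in 17 of 21, with a median of -0.19, but the pools disagreed in size, at -0.57, -0.25 and -0.0046. Of the 21, 5 were lower in 3 of 3 pools and 2 had an unadjusted p under 0.05. The 2 were Wt1, given above, and Emx2, a homeobox gene of the gonad and its surface epithelium. Emx2 had 248, 374 and 234 with vehicle and 138, 221 and 139 with AMH, without overlap and by nearly equal amounts in each pool, -0.78, -0.72 and -0.69. Its mean was -0.73 (SE 0.14) with an unadjusted p of 0.000318. Foxl2, the granulosa identity factor gene, stood at 1004, 862 and 1001 against 654, 976 and 997, with only pool 1 clearly lower. Kitl, the KIT ligand through which granulosa cells act on the oocyte, stood at 0.03 (SE 0.15), and Inha at 0.11 (SE 0.16).

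Genes of the FSH response gave different signs in different pools. Fshr, the FSH receptor gene, had 213, 78.0 and 155 with vehicle and 101, 139 and 128.3 with AMH, lower in pools 1 and 3 and higher in pool 2. Its mean was -0.16 (SE 0.29) with an interval of -0.82 to 0.49. Inhba, the activin beta A gene, stood at 582, 865 and 1210 against 222, 517 and 1586. It was lower in pools 1 and 2 and higher in pool 3, at -0.56 (SE 0.37). Fst, the follistatin gene, followed the same order, at 343, 442 and 249 against 156, 213 and 516, or -0.35 (SE 0.37). Esr2, the estrogen receptor beta gene, differed by -1.50 in pool 1 and by 0.10 and -0.30 in the others. FSH-induced genes were split into 8 lower and 8 higher, and Cited4, a transcriptional co-regulator gene, was the 1 of 16 with an unadjusted p under 0.05, at 0.56 (SE 0.19). LH-induced and cumulus expansion genes were higher in 10 of 16, with a median of 0.16 and 0 at an unadjusted p under 0.05. Their pool medians were 0.10, 0.16 and 0.10, and without pool 2 the list median was 0.0045, with 8 of 16 lower.

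Cholesterol biosynthesis genes, which supply the substrate of steroid hormones, were higher in 16 of 20 by small amounts. Their median was 0.13, the pool medians were close together at 0.14, 0.12 and 0.10, and 8 were higher in 3 of 3 pools, while 0 reached an unadjusted p under 0.05. Mvk, the mevalonate kinase gene, had 320.2, 356 and 339 with vehicle and 397, 426 and 387 with AMH, without overlap, at 0.24 (SE 0.11). Steroidogenesis genes were higher in 8 of 12, with a median of 0.09. Star, the carrier of cholesterol into mitochondria, differed by 0.17, 0.15 and 0.14 in the pools, or 0.15 (SE 0.12), and Cyp11a1, the side-chain cleavage enzyme gene, by 0.26 (SE 0.15). Cyp17a1, whose product forms androgens in theca cells, stood at 168, 29.8 and 421 against 105, 50.7 and 114, with a wide spread among the vehicle cultures and the opposite sign in pool 2.

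Stromal genes were higher with AMH mainly in pool 1. Theca and interstitial markers had a median of 0.19 (-0.11 without pool 1) and pool medians of 0.52, -0.25 and -0.14, extracellular matrix genes of 0.66, 0.02 and 0.02, and smooth muscle and pericyte markers of 0.59, 0.06 and 0.27. Matrix genes were higher in 23 of 29 and smooth muscle markers in 10 of 11, with 0 of either list at an unadjusted p under 0.05 at their brightest probe set. Without pool 1 the matrix median went from 0.18 to 0.03, with 13 of 29 lower. That of smooth muscle markers went from 0.37 to 0.165, with 2 of 11 lower. Acta2, the smooth muscle actin gene, had 898, 1250 and 903 with vehicle and 2590, 825 and 1382 with AMH. The AMH array of pool 1 stood above all others, and the mean was 0.51 (SE 0.34). Col1a1, a collagen gene, averaged 0.48 (SE 0.24) at its brightest probe set. A second probe set gave 0.73 (SE 0.28) with an unadjusted p of 0.0243, at 1.34, 0.72 and 0.14 in the pools. Lum, a matrix proteoglycan gene, averaged 0.63 (SE 0.36), with a difference of 1.82 in pool 1 and -0.15 in pool 3. The AMH array of pool 1 also had the highest spike controls, as given above, and the part of that array in these values was not tested. The fatty acid carrier gene Fabp4, placed among the interstitial markers, went the other way, at 119, 149 and 294 against 22.1, 89.1 and 95.4, without overlap, at -1.32 (SE 0.37).

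**Figure D4:**
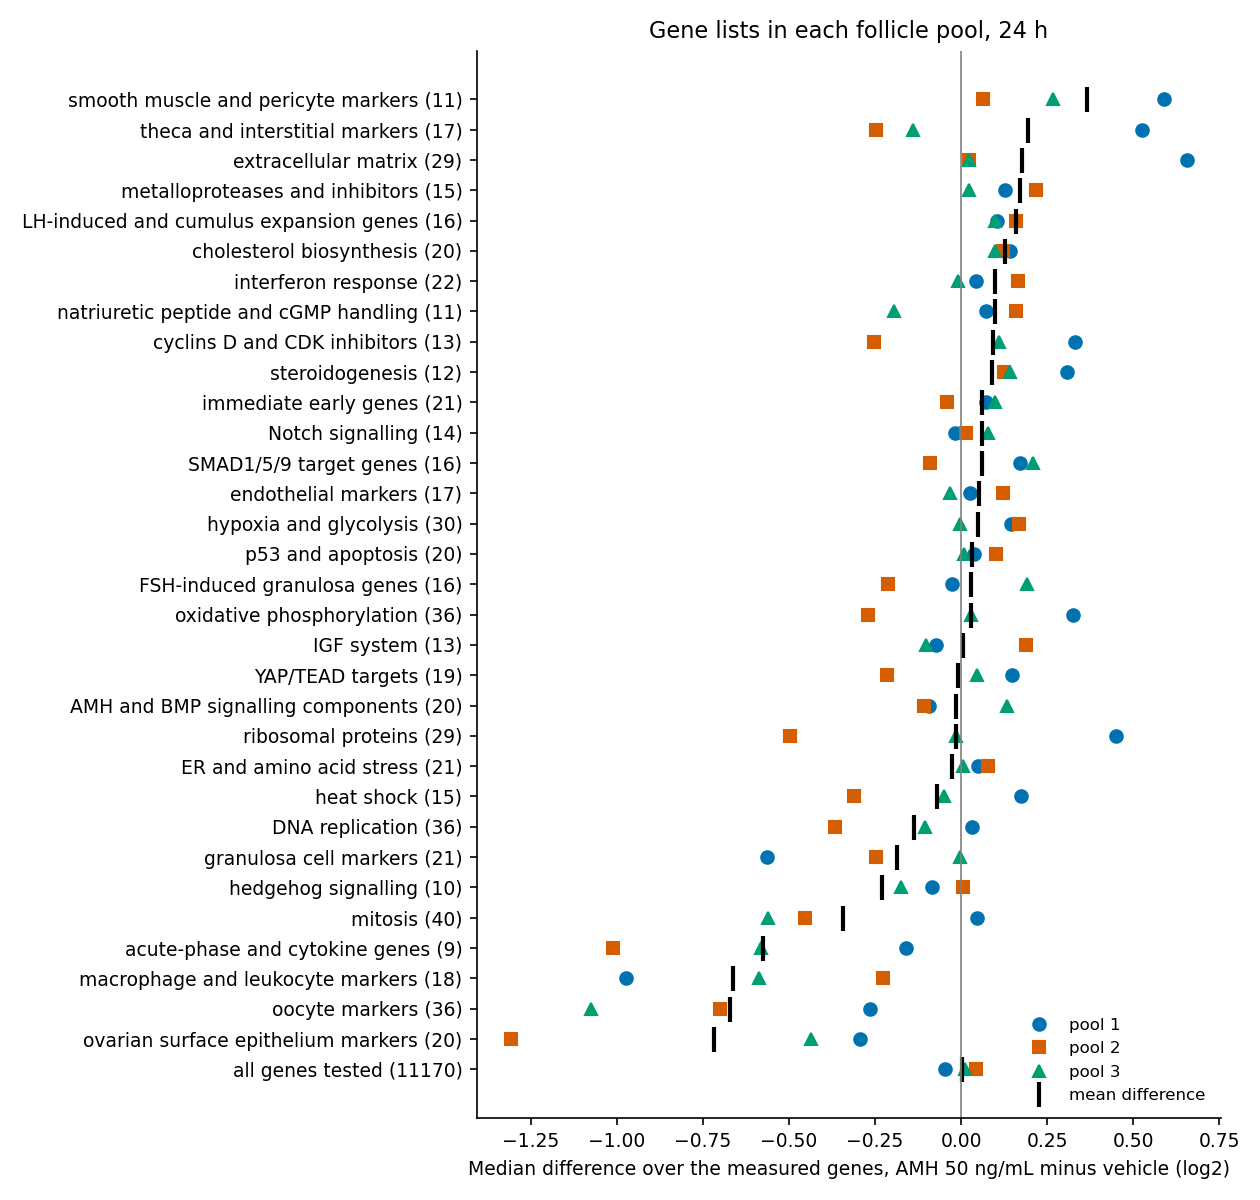
Median difference of each gene list with 9 or more measured genes (number in brackets) in pools 1, 2 and 3, and the median of the mean differences (bars), in log2. Surface epithelium, oocyte, leukocyte, acute-phase and granulosa lists lie left of 0 in all 3 pools, the last by only -0.0046 in pool 3. The median over all genes lies near 0.

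Hypoxia and glycolysis genes showed members of opposite sign. Ndrg1, a hypoxia and stress gene, had 450.5, 680.2 and 646 with vehicle and 1014, 1050 and 716 with AMH at its brightest probe set, at 0.64 (SE 0.20), and its other 4 tested probe sets ranged from 0.32 to 0.51. Egln3, the prolyl hydroxylase 3 gene, stood at 82.5, 129 and 174 against 89.9, 394 and 255, highest in pool 2, at 0.71 (SE 0.25). Car9, the carbonic anhydrase 9 gene, was lower in each pool, at -0.66 (SE 0.21). Of 30 members 20 were higher, with a median of 0.05.

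Single members of other lists had small p-values while the medians of their lists lay nearer 0. Myc had 482, 483 and 479.6 with vehicle and 578, 689.7 and 599.8 with AMH. The vehicle arrays were nearly equal and all AMH arrays were above them, at 0.36 (SE 0.10) with an unadjusted p of 0.00465. Another immediate early gene, Egr3, stood at -0.60 (SE 0.24). Npr1, the receptor gene of atrial natriuretic peptide, had 139.7, 151 and 201 against 91.2, 81.3 and 98.2, without overlap, at -0.75 (SE 0.19). The Notch ligand gene Jag1 stood at -0.58 (SE 0.14), the heat shock gene Hspa1b at -0.51 (SE 0.14) without overlap, and Gas1, a co-receptor gene of hedgehog signalling, at -0.45 (SE 0.13). None of these passed the adjusted threshold.

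The remaining lists had medians between -0.23 and 0.17. Hedgehog signalling stood at -0.23 (10 genes), heat shock at -0.07 (15), ER and amino acid stress at -0.03 (21), ribosomal proteins at -0.02 (29), YAP/TEAD targets at -0.01 (19) and the IGF system at 0.01 (13). Oxidative phosphorylation stood at 0.03 (36), p53 and apoptosis at 0.03 (20), endothelial markers at 0.05 (17), Notch signalling at 0.06 (14), immediate early genes at 0.06 (21), natriuretic peptide and cGMP handling at 0.10 (11), interferon response at 0.10 (22), and metalloproteases with their inhibitors at 0.17 (15). Without pool 2 interferon response stood at -0.05, with 13 of 22 lower, and metalloproteases at 0.04, and the medians of heat shock, ribosomal protein, YAP/TEAD and IGF genes changed sign as well. That of oxidative phosphorylation changed sign without pool 1, and those of Notch signalling and YAP/TEAD targets without pool 3. The within-pool medians of ribosomal protein genes had opposite signs in pools 1 and 2, at 0.45, -0.50 and -0.01, and oxidative phosphorylation genes followed the same order, at 0.32, -0.27 and 0.03.

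The doses were compared directly at 24 h. This difference subtracts the same 3 AMH 50 ng/mL arrays that the comparison with vehicle rests on, so that genes or lists picked out as low on those arrays tend to be higher here by that choice alone, and those picked out as high tend to be lower. The values below are therefore descriptions, set beside those against vehicle, and nothing is read from a change of sign. The differences of both doses from vehicle subtract the same 3 vehicle arrays, so that a high or low vehicle array moves both the same way. A like sign at both doses is therefore no separate evidence. Limma called 0 of 22518 probe sets between 200 and 50 ng/mL (0.00%), and 1990 (8.84%) had an unadjusted p under 0.05. Oocyte markers had a median of 0.70 for 200 minus 50 ng/mL, of -0.67 for 50 ng/mL minus vehicle and of -0.01 for 200 ng/mL minus vehicle. Slc18a2 stood at 574, 571 and 1110 with 200 ng/mL, which lay between its 50 ng/mL and vehicle signals in each pool, and 200 minus 50 ng/mL was 0.78 (SE 0.13). For the same difference Zp3 stood at 1.61 (SE 0.44), Cxcl1 at 0.97 (SE 0.18), Slc40a1 at 0.82 (SE 0.11), Ndrg1 at -1.40 (SE 0.20) and Mapk13 at -0.95 (SE 0.17). Surface epithelium markers had a median of 0.03 between the doses and of -0.61 for 200 ng/mL minus vehicle. Leukocyte markers had medians of -0.07 and -0.76. For Muc16 the difference between the doses was 0.09 (SE 0.21) and for Tyrobp 0.12 (SE 0.19). LH-induced genes had a median of -0.39 between the doses and of -0.31 for 200 ng/mL minus vehicle.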

How the data were processed

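RNA of follicle cultures was amplified from 5 ng and hybridised to Affymetrix Mouse Genome 430 2.0 arrays. The deposited intensity values are MAS5 signals on a linear scale, computed by the authors per the submitters' processing notes (version not given). Their 2% trimmed mean was 150 on every array. They were not normalized again. After 16 was added, log2 values of the 9 arrays of 24 h went into linear models of dose and pool (R 4.3.3, limma 3.58.1, eBayes with trend). Probe sets were kept where their mean over these arrays exceeded the 50th percentile. Tests were two-sided, with Benjamini-Hochberg adjustment at 0.05, and an unadjusted p of a named gene is limma's too.

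The replicate number pairs the cultures because the labels' protocol divides 1 pool over the doses. Same-pool deviations from the group means of vehicle and AMH 50 ng/mL correlated at 0.205, 0.227 and 0.505 across genes. Those of AMH 50 and 200 ng/mL correlated at 0.096, 0.144 and 0.136, and those of vehicle and AMH 200 ng/mL at 0.571, 0.326 and 0.249. Deviations of different pools were not compared, so these values do not test the pairing. Of 45037 probe sets, 34945 had 1 symbol, 932 several and 9160 none. A gene is represented by its brightest tested probe set unless another is given. Named genes were the 10 probe sets with the smallest p in each direction with 1 sign in all pools, up to 6 genes of each of 34 lists, and fixed genes. The comparison, lists and genes were chosen with earlier results of these data known. Alternatives changed the block, arrays, pseudocount, normalization, filter, variance model, array weights and the probe sets that represent a gene. Each pool was also left out in turn. Promoters are RefSeq's. Plots used python 3.11.15 and matplotlib 3.10.9. Scanned images were not used here.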

Additional observations from a re-analysis of the deposited data

How the results depend on the processing

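The count of 1 probe set called between AMH 50 ng/mL and vehicle was kept with a pseudocount of 1 or 50, quantile normalization or a robust variance prior. It was 0 without the replicate block (669 at an unadjusted p under 0.05), 0 with all 18 arrays or with 17, 0 with no filter and 0 without the variance trend. It was 5 with the filter at the 75th percentile, 8 with median centring, 10 with the 6 arrays alone and 115 with array weights, of which 113 were lower. Leaving out 1 pool gave 0 to 14. In pools 1, 2 and 3 the array weights were 0.28, 0.52 and 3.03 with AMH 50 ng/mL and 2.47, 0.50 and 1.48 with vehicle. The 115 calls therefore lean on the AMH array of pool 3 and do not weigh the 3 pools alike. Between the doses the count of 0 became 24 with median centring and 22 with array weights, and 0 to 32 with 1 pool left out. Of 92 genes named, 82 kept their sign under every one of the 14 to 16 settings that tested them (50 genes were tested under all 16), and so did the medians of 18 of 34 lists, those of oocyte, surface epithelium, mitosis and granulosa genes among them, but not that of leukocyte markers (filter at the 75th percentile). The granulosa median kept its sign but came close to 0 under some settings. It was -0.02 with array weights (11 of 21 lower), -0.03 without pool 1 (14 of 21 lower) and -0.08 with median centring (14 of 21 lower). With array weights Inhba stood at 0.11, Fst at 0.43 and Smad7 at 0.010, and with median centring Smad7 at 0.016. With 1 pool left out, Inha ranged from -0.024 to 0.30, Fst from -1.03 to 0.00321, Smad7 from -0.26 to 0.14, Id1 from -0.020 to 0.12, Id2 from -0.11 to 0.20, Foxl2 from -0.31 to 0.086, Fshr from -0.60 to 0.24, Kitl from -0.057 to 0.12 and Maob from -0.28 to 0.27. The causes were not tested. Signals near the floor limit the differences of Zp2, Lhx8 and Muc16 with AMH.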

Other observations

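Pdzd8 is the next protein-coding gene after Slc18a2 on chromosome 19 in the RefSeq table, on the opposite strand, and Emx2 follows it. The probe set of Pdzd8 that was lower with AMH stood at 200.5, 166 and 322 with 200 ng/mL, and Slc18a2 at 574, 571 and 1110, and the 50 ng/mL value was the lowest of the 3 doses in every pool for both, which were picked for low values at that dose. Another Pdzd8 probe set, too dim to be tested, stood at 25.9, 35.4 and 43.2 with vehicle and 10.4, 21.3 and 13.6 with 50 ng/mL. The other 2 tested probe sets of Pdzd8 stayed within 0.22 of 0 in the mean. Whether the signals of that probe set come from Pdzd8 was not tested.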
